A study of Danio rerio with 12 samples.

Results

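The effect of stress metabolites on embryos that were heated at the same time was read from 6 of the 12 RNA-seq libraries of the series: 3 pools of treatment TS+SM and 3 pools of treatment TS, chosen by their sample labels. Every library was made from a pool of 20 whole zebrafish embryos of the AB line, a laboratory wild type, collected at 1 dpf after 24 h of exposure that each embryo spent alone in its own tube in the dark. Both treatments held embryos in a thermal cycler that went between 27 °C and peaks of 32 °C for 19 cycles. TS+SM embryos received SM, the medium in which other embryos had been heated on the previous day, and TS embryos received medium without that history. SM embryos had the same conditioned medium at a constant 27 °C, and C embryos had medium without stress metabolites at 27 °C. SM and C are used here only to set the effect of the medium without heat beside its effect with heat. SM is a mixture of what the donors released, so these samples do not separate one compound from another, and a pool of whole embryos does not show which tissue a transcript came from. No library came from embryos kept in medium of unheated donors. Effects of medium from heated donors and of any embryo-conditioned medium therefore cannot be told apart here.

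Heat peaks unfold proteins, and cells answer by transcribing heat shock genes, whose chaperones refold them. Fish also sense substances that stressed or injured neighbours release into the water, mostly through olfactory and related receptors, and the skin is the first tissue such substances touch. At 1 dpf the embryo still lies in its chorion, its muscle fibres and lens are differentiating, and its olfactory organ is immature.

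Counts on genes ranged from 19280188 to 60239167 in the 3 TS+SM libraries and from 21340207 to 31663431 in the 3 TS libraries, and the highest total was that of TS+SM replicate 1. Levels are given as normalized counts: each count was divided by its library's TMM-scaled total (edgeR) and multiplied by the mean of these totals over the 12 libraries. LFC is the log2 fold change, positive where TS+SM was higher unless another comparison is named. As a check of the heat label, *hsp70.3*, an inducible chaperone, had 267, 257 and 242 normalized counts in the TS+SM pools and 327, 311 and 304 in the TS pools, all above the 78.3 to 127 of the 6 pools at 27 °C. Distances between libraries overlapped within and between treatments. The root mean square difference of log2 CPM was 0.67 to 1.11 within TS+SM and 0.39 to 0.99 within TS, and 0.43 to 1.32 between TS+SM and TS. TS replicate 3 stood apart from the other TS pools (0.99 to each, while TS replicates 1 and 2 differed by 0.39). Among pools of the other treatments it was nearest to C replicate 3 (0.49) and TS+SM replicate 3 (0.73), and it was 1.17 from SM replicate 3. The first principal component of the 6 libraries held 65.3% of the variance and had TS+SM replicate 1 at one end and TS replicate 3 at the other. The treatments overlapped along it (exact two-sided permutation test over 20 splits, *P* = 0.70, with 0.10 the smallest value such a test can give). TS+SM replicate 3 lay on the side of TS replicate 3. The treatments also overlapped along the second component (16.4%; same permutation test, *P* = 0.80). Along the third (7.64%) they did not overlap (same permutation test, *P* = 0.10).

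No gene passed the correction for the number of genes tested. Of 18688 genes tested with edgeR's quasi-likelihood test, 0 (0%) had a *P*-adj of 0.05 or less after Benjamini-Hochberg adjustment, and the smallest *P*-adj in TS+SM vs. TS was 0.996. DESeq2 also called 0 genes. The study also compared TS+SM with TS and reported functional terms and pathways that SM added there. Such terms were not examined here. At an unadjusted *P* under 0.01, the threshold that the study applied to SM vs. C, edgeR gave 29 genes (0.155%), of which 15 were higher (0.0803%) and 14 lower (0.0749%) in TS+SM, and DESeq2 gave 59. At an unadjusted *P* under 0.05 edgeR gave 271 genes (1.45%), 120 higher (0.642%) and 151 lower (0.808%), and DESeq2 gave 383. All 3 TS+SM pools lay above all 3 TS pools for 507 genes (2.71%) and below them for 503 genes (2.69%). The median LFC over all genes was -0.01 and the median of its absolute value was 0.18, with a median SE of 0.28. Of all genes 9128 were higher and 9560 lower in TS+SM. In the third of genes with the highest level 3720 of 6229 were higher (median LFC 0.04). In the third with the lowest level 2433 of 6230 were higher (median LFC -0.16). The SE was 0.19 in the third of genes with the highest level and 0.57 in the third with the lowest, so small differences of weakly expressed genes were not detectable at this spread. The 29 genes turned over with single libraries. Without TS+SM replicate 2 the count was 13, of which 8 were among the 29, and without TS+SM replicate 3 it was 94, of which 15 were among the 29. Without TS replicate 3 the count was 32, of which 5 were among the 29. Every gene named below is therefore given with its pools, and none passed the correction unless a sentence says so.

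**Figure D1:**
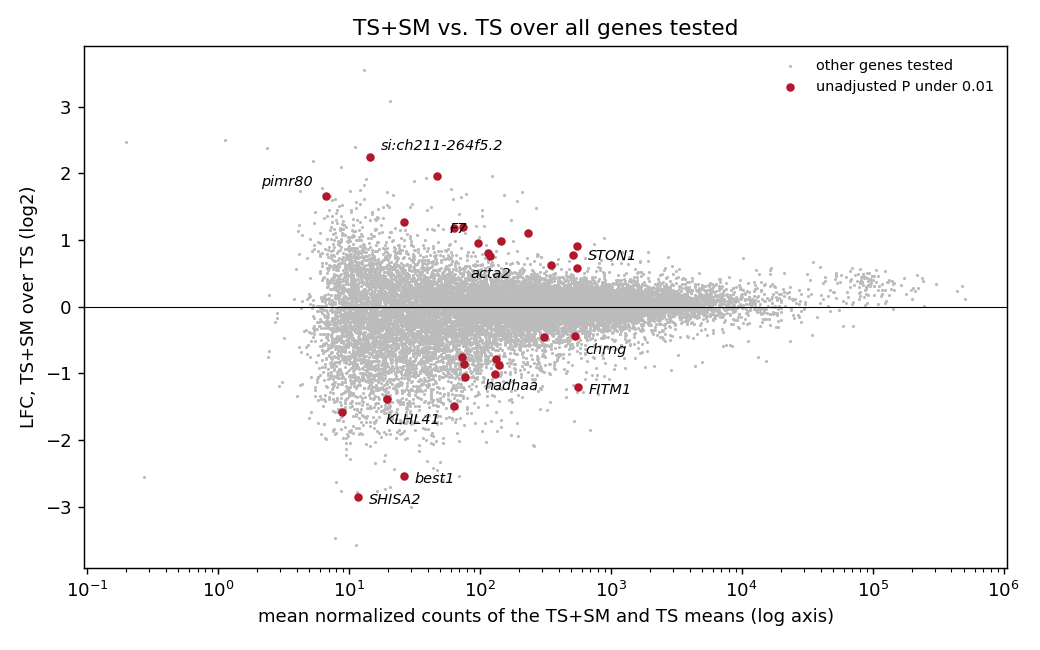
Mean normalized counts (log axis) against the LFC of TS+SM over TS for the genes tested, with the 29 genes at an unadjusted P under 0.01 in red and all others in grey. Red points lie on both sides of 0, and the grey cloud widens towards low counts.

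The 12 genes named as higher in TS+SM had LFCs between 0.59 and 2.24 and were the first 12 by unadjusted *P* whose pools did not overlap and whose mean was at least 10 normalized counts in the higher group. The lowest *P* among them belonged to *F7* (ENSDARG00000034862), which carries the symbol of coagulation factor VII, a liver enzyme that starts blood clotting. It had 96.3, 147 and 141 normalized counts in TS+SM, against 64.4, 54.2 and 79.0 in TS, an LFC of 0.95 ± 0.24 (SE; edgeR, unadjusted *P* = 0.00223). The lowest TS+SM pool was replicate 1, which lay above every TS pool, as the rule requires. The name table gives this symbol to 3 identifiers, so the copies are not told apart by name.

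*acta2*, the actin of smooth muscle, had 169, 139 and 136 normalized counts in TS+SM, against 76.7, 100.2 and 78.3 in TS. The LFC was 0.80 ± 0.24 (edgeR, unadjusted *P* = 0.00538), and it stayed between 0.69 and 0.94 when any 1 of the 6 pools was left out. The TS+SM pools were also above all SM pools (59.5 to 88.2) and all C pools (55.9 to 79.0). *acta2* is one of the genes that the study placed in apelin signaling, a peptide hormone pathway of heart and vessels, for the combined treatment. The study chose it on these same TS+SM libraries, so that choice is no independent evidence.

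*STON1*, the symbol of an adaptor protein of endocytosis, had 720.2, 562 and 709 normalized counts in TS+SM and 457, 455 and 417 in TS (LFC 0.59 ± 0.15, edgeR unadjusted *P* = 0.00255). *SGIP1*, the symbol of an endocytic protein of neurons, had 460.0, 404 and 401 in TS+SM and 308, 284 and 227 in TS (LFC 0.63 ± 0.19). In both genes the treatments did not overlap, as the rule requires.

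*KCNJ1* (ENSDARG00000002666) bears the symbol of an inward rectifier potassium channel that moves potassium out of cells of the kidney and, in fish, of ionocytes in the skin. Its levels were 134, 160.0 and 161 normalized counts in TS+SM, against 109, 77.2 and 81.8 in TS, and the TS+SM pools were again above every SM and C pool. The symbol belongs to 7 identifiers, so reads of close copies may have been split between them or left uncounted. *pimr80*, of a large family of Pim-related kinases, had few reads: 19, 10 and 5 counts in TS+SM, against 3, 3 and 4 in TS.

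Another 6 of the 12 genes have only a clone name or an identifier in the name table, one of which, *CU633479.2*, the study calls myosin 7, a motor protein of muscle. *si:ch211-264f5.2* had the largest LFC of the 12, 2.24 ± 0.62, from 19, 15 and 34 counts in TS+SM and 4, 4 and 8 in TS. ENSDARG00000108060 had 343, 320.0 and 299 in TS+SM and 156, 203 and 90.02 in TS, and *si:dkey-250k10.4* had 205, 172 and 199 in TS+SM and 88.1, 94.8 and 109 in TS. The other ones, *si:ch211-222n22.1*, *CU633479.2* and *si:ch73-359m17.2*, had LFCs of 1.27, 0.90 and 1.17. In *si:ch211-222n22.1* the TS+SM pools (46.1, 31.0 and 35.1) were at the level of C (32.6 to 39.9), and the TS pools (11.4, 20.3 and 15.12) were the low ones. The TS pools of *STON1*, *pimr80*, *si:ch211-264f5.2* and *si:dkey-250k10.4* were likewise below all SM and C pools. Of the 12 genes, *F7*, *KCNJ1*, ENSDARG00000108060, *acta2* and *SGIP1* were higher in every TS+SM pool than in all 9 pools of the other treatments. The margin was very small for *F7*, with 96.31 in TS+SM replicate 1 and 96.27 in C replicate 1. It was also small for *KCNJ1*, with 134 in TS+SM replicate 1 and 131 in SM replicate 3.

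**Figure D2:**
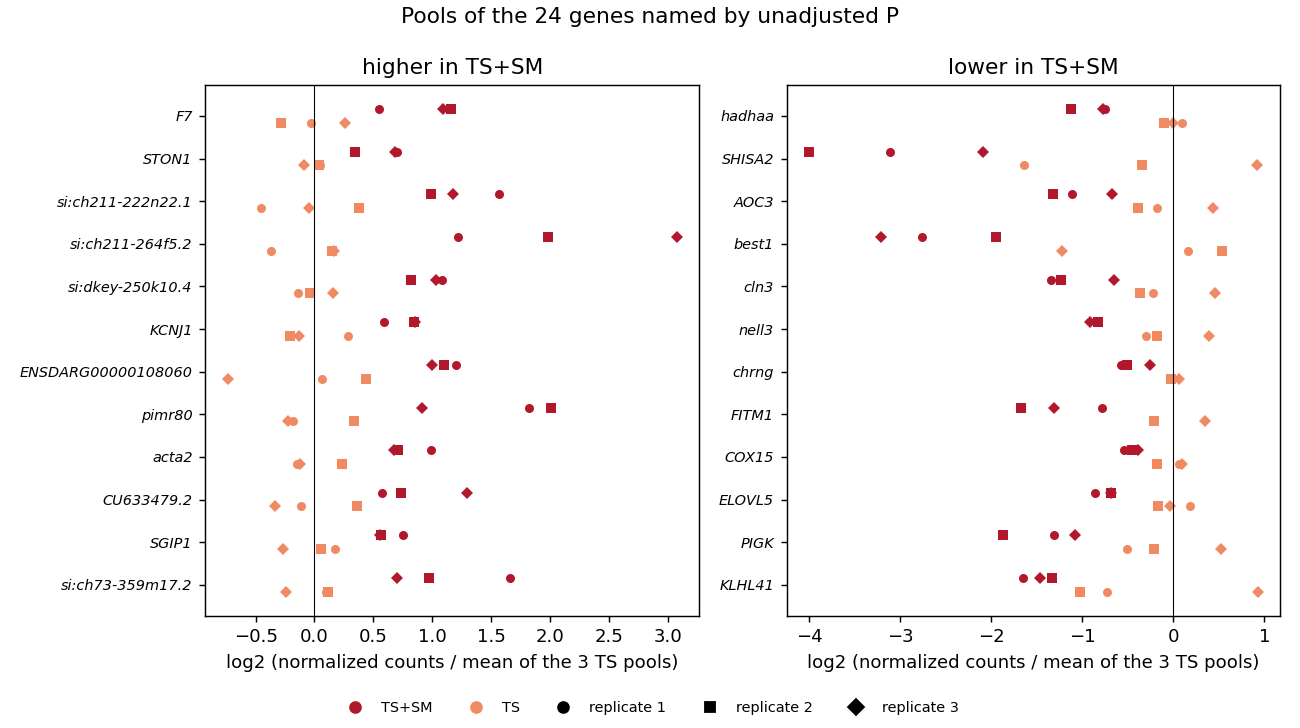
Each TS+SM pool (dark red) and TS pool (orange) as the log2 ratio to the mean of the 3 TS pools, for the 12 genes higher (left) and the 12 genes lower (right) in TS+SM, with a marker shape for each replicate. The colours do not overlap within a gene, as the rule requires, and in the right panel TS replicate 3 is the highest pool of 9 genes.

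The 12 genes named as lower in TS+SM had LFCs between -2.85 and -0.44 by the same rule. *hadhaa* had the smallest unadjusted *P* of all genes tested. It encodes an alpha subunit of the mitochondrial trifunctional protein, which carries out the last steps of each round of fatty acid oxidation. Its levels were 106, 82.6 and 105 normalized counts in TS+SM, against 192, 168 and 179 in TS. The mean was 98.2 ± 13.5 in TS+SM and 179.9 ± 12.2 in TS (SD of 3 pools each), and the LFC was -0.87 ± 0.21 (edgeR, unadjusted *P* = 0.00121). No TS+SM pool reached any pool of the 3 other treatments, whose lowest value was 151. The LFC lay between -0.94 and -0.76 when any 1 of the 6 pools was left out.

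*FITM1*, the symbol of a protein of the endoplasmic reticulum that promotes fat droplets in muscle, had 455, 244 and 315 normalized counts in TS+SM and 676, 674 and 993 in TS (LFC -1.20 ± 0.36, edgeR unadjusted *P* = 0.00647). *ELOVL5*, an elongase of polyunsaturated fatty acids, had 50.2, 56.8 and 57.0 in TS+SM and 104.2, 81.3 and 89.3 in TS (LFC -0.75 ± 0.23). *COX15*, needed to make the heme A of cytochrome c oxidase, had 244, 261 and 273 in TS+SM and 373, 316 and 380.0 in TS (LFC -0.46 ± 0.14). For *ELOVL5* the TS+SM pools were at the level of C (45.6 to 55.9) and SM (48.8 to 55.9), while the TS pools were above both. For *FITM1* the TS+SM pools overlapped those of C (258 to 532).

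*chrng*, the gamma subunit of the acetylcholine receptor of immature muscle, had 412, 431 and 513 normalized counts in TS+SM and 599, 599.9 and 638 in TS (LFC -0.44 ± 0.13, edgeR unadjusted *P* = 0.00537). *myog*, the transcription factor that drives muscle precursors into fusion and fibre formation, had 438, 468 and 421 in TS+SM and 621, 654 and 694 in TS (LFC -0.57 ± 0.20, edgeR unadjusted *P* = 0.0130). Both genes were lowest in TS+SM of all 4 treatments, and both had their highest mean in C. *KLHL41* (ENSDARG00000068888), the symbol of a sarcomere protein, had 29.9, 37.4 and 33.9 in TS+SM and 56.8, 46.0 and 179 in TS. Its LFC of -1.49 rested mostly on TS replicate 3 and was -0.61 without it (edgeR, unadjusted *P* = 0.0840).

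TS replicate 3 was the highest TS pool for 9 of the 12 lower genes, and for 118 of the 151 genes that were lower in TS+SM at an unadjusted *P* under 0.05 (78.1%), against 45.0% of all genes tested. *SHISA2*, named for a protein that lowers Wnt and FGF signaling in frogs, had 4, 1 and 4 counts in TS+SM and 7, 12 and 57 in TS. Its LFC was -2.85 ± 0.80 with all pools and -1.94 without TS replicate 3. *AOC3*, an amine oxidase of the vessel wall in mammals, had 80.2, 69.7 and 109 normalized counts in TS+SM and 153, 133 and 236 in TS. *cln3*, a lysosomal membrane protein, had 40.7, 43.9 and 65.5 in TS+SM and 88.1, 79.9 and 141 in TS. *PIGK*, part of the enzyme that attaches GPI anchors, had 11.4, 7.74 and 13.3 in TS+SM and 19.9, 24.4 and 40.5 in TS. *nell3*, a secreted protein related to NELL, had 54.4, 55.5 and 52.1 in TS+SM and 79.6, 86.7 and 129 in TS. In each of these genes TS replicate 3 was the highest of the 6 pools. That TS replicates 1 and 2 also lay above every TS+SM pool was required by the naming rule. The part of this library in the lower genes as a group was not tested beyond leaving it out.

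*best1* had the second lowest LFC among the 24 genes named by *P*. It encodes bestrophin 1, a chloride channel opened by calcium. It had 6.58, 11.6 and 4.85 normalized counts in TS+SM, against 50.2, 65.0 and 19.2 in TS (LFC -2.53 ± 0.73, edgeR unadjusted *P* = 0.00477), and the LFC stayed between -2.91 and -2.17 when any 1 of the 6 pools was left out. Without heat the order was the other way round: 17.1, 86.9 and 32.0 in SM, against 7.09, 9.72 and 1.86 in C (LFC 2.85 ± 0.74, edgeR unadjusted *P* = 0.00244). The level with both treatments was thus near that of C, and the level with either treatment alone was higher.

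**Figure D3:**
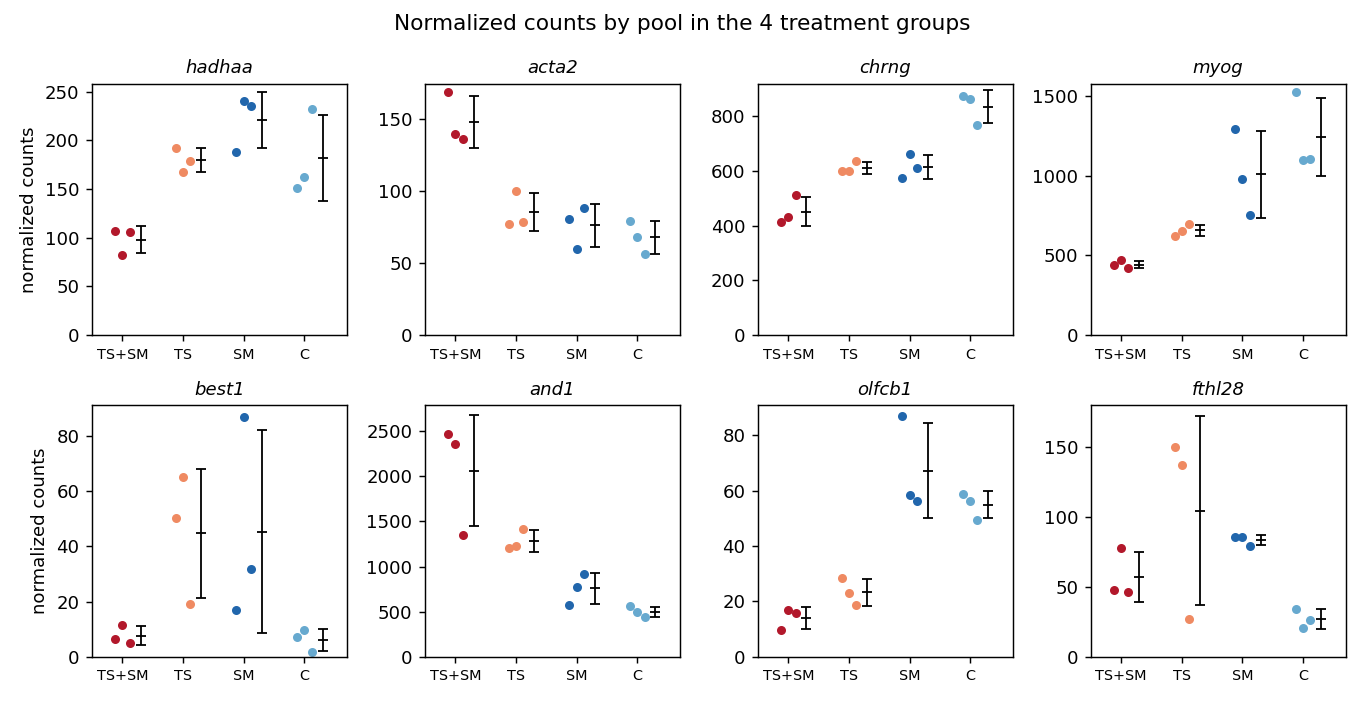
Normalized counts of 8 genes in each pool of TS+SM, TS, SM and C (points), with the mean and SD of the 3 pools (black bars). The TS+SM points of hadhaa, chrng and myog lie below and those of acta2 above all other pools, and best1 is high in TS and in SM but not in TS+SM or C.

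Of the other genes that the study named for the combined treatment, *olfcb1* and *RYR2* had TS+SM and TS pools that did not overlap, and the others overlapped. Over all genes tested, the TS+SM pools lay above all TS pools for 2.71% and below them for 2.69%. The study took *ora3* and the apelin genes from TS+SM against C, and *olfcb1* from TS+SM against SM. Those comparisons differ from TS+SM vs. TS, so the values below do not test them. Both choices used these same TS+SM libraries, so a difference between TS+SM and TS is in part built into them. *ora3*, a V1R-type olfactory receptor, had 15.0, 12.9 and 3.64 normalized counts in TS+SM and 5.68, 9.48 and 11.7 in TS (LFC 0.25 ± 0.56, edgeR unadjusted *P* = 0.669). The treatments overlapped, and all 6 heated pools were above the 0.932 to 1.01 of C, where every pool held 1 read. *olfcb1*, an olfactory receptor of class C, had 9.57, 16.8 and 15.8 in TS+SM and 28.4, 23.0 and 18.6 in TS (LFC -0.75 ± 0.35, edgeR unadjusted *P* = 0.0520). Its TS+SM pools were all below its TS pools, and its heated pools were all below the 49.4 to 86.9 of the pools at 27 °C. *map1lc3cl*, of the LC3 family of autophagy proteins, had 718, 602 and 644 in TS+SM and 595, 767 and 407 in TS, and *si:ch211-286b5.5* had 2376, 1743 and 1292 in TS+SM and 1650, 1567 and 1049 in TS. The pools of both genes overlapped, with LFCs of 0.16 ± 0.27 and 0.35 ± 0.25. Without TS+SM replicate 1 the LFC of *si:ch211-286b5.5* was 0.09. *RYR2* (*ryr2a* in the study), a calcium release channel of the heart, averaged 73.2 normalized counts in TS+SM and 57.9 in TS, with all TS+SM pools above the TS pools (LFC 0.34 ± 0.29, edgeR unadjusted *P* = 0.272). *MEF2A* (*mef2aa* in the study), a transcription factor of muscle, averaged 115.6 in TS+SM and 85.4 in TS (LFC 0.45 ± 0.44), with overlapping pools.

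Lists of genes by tissue and pathway were counted in the same fit. The 22 lists held 579 different genes, of which 469 were tested. Of these, 13 (2.77%) had an unadjusted *P* under 0.05, against 1.45% of all genes, 2 were under 0.01 and none had a *P*-adj of 0.05 or less from edgeR. Some members, such as *acta2*, *her1*, *myog*, *and1* and *ggact.3*, were named by the study from TS or TS+SM against C on these same libraries. The larger share is therefore in part built into the choice of members, and how far was not tested. With whole embryos, fewer cells of a type and less RNA per cell cannot be told apart in any of these lists.

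Epidermal genes leaned towards TS+SM. Of 30 members tested, which include keratins and proteins of the cornified layer, 28 were higher and 2 lower in TS+SM, with a median LFC of 0.33 against -0.01 over all genes. Over the third of genes with the highest level the median LFC was 0.04. Only 1 member, *scel*, had pools that did not overlap, 3.33% of the list against 2.71% of all genes. *scel*, named for sciellin of the cornified envelope, had 785, 695 and 633 normalized counts in TS+SM and 553, 506 and 546 in TS (LFC 0.40 ± 0.14, edgeR unadjusted *P* = 0.0153). *cyt1*, a type I cytokeratin and one of the most abundant transcripts of the embryo, had 122914, 72890 and 52603 in TS+SM and 60511, 57544 and 48233 in TS. *cyt1l* and *anxa1a*, an annexin, had LFCs of 0.57 ± 0.30 and 0.43 ± 0.21. TS+SM replicate 1, the deepest library, was the highest pool of *cyt1*, *cyt1l* and *anxa1a*, and without it the LFCs of *cyt1*, *cyt1l* and *anxa1a* were 0.18, 0.20 and 0.21. The summed level of the list was 621378 to 1243710 in TS+SM and 569631 to 808812 in TS, with replicate 1 at the top of TS+SM. Without that pool the median LFC of the list was 0.10, and without TS+SM replicate 3 it was 0.53.

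Crystallins, the proteins of the lens, were higher for 20 of 24 members tested (median LFC 0.25; 52 were matched, and the others did not pass the filter on low counts), and 0 had an unadjusted *P* under 0.05 in edgeR. Of the 24, 4 members (16.7%) had TS+SM pools above all TS pools, against 2.71% of all genes. The most abundant of the 4 was *cryba1b*, with 2046, 1727 and 1817 normalized counts in TS+SM and 1719, 1593 and 1396 in TS (LFC 0.25 ± 0.14, edgeR unadjusted *P* = 0.0968). The median LFC of the crystallins stayed between 0.18 and 0.28 when any 1 of the 6 pools was left out.

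In the list of fast muscle and fin fold genes 13 of 29 members were higher and 16 lower (median LFC -0.04, and -0.21 to 0.13 when any 1 pool was left out). Its lower member was *myog*, given above, and its higher member at an unadjusted *P* under 0.05 was *and1*, an actinodin of the collagen-like fibrils that stiffen the fin fold. *and1* had 2473, 2353 and 1354 in TS+SM and 1203, 1223 and 1420 in TS (LFC 0.68 ± 0.23, edgeR unadjusted *P* = 0.0113), and TS+SM replicate 3 lay within the TS pools. *and2* had 701, 901 and 591 in TS+SM and 364, 397 and 778 in TS, and *and3* had 266, 283 and 159 in TS+SM and 121, 134 and 236 in TS. In *and2* and *and3* the treatments overlapped through TS replicate 3, which was high in both. Of the segmentation genes, 16 of 24 were higher, and *her1*, a cycling repressor of the segmentation clock, had 20.3, 25.8 and 29.1 in TS+SM and 13.3, 16.3 and 13.1 in TS (LFC 0.82 ± 0.32, edgeR unadjusted *P* = 0.0265). All 6 heated pools of *her1* were below the 69.9 to 127 of the pools at 27 °C.

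Blood, yolk and pigment lists leaned towards TS, in each case with TS replicate 3 as the top pool. Erythroid genes were lower in TS+SM for 10 of 14 members (median LFC -0.28), 3 of them at an unadjusted *P* under 0.05, where 0.808% of all genes were lower. *TAL1*, a transcription factor of blood precursors, had 468, 453 and 440.0 normalized counts in TS+SM and 513, 593 and 656 in TS (LFC -0.37 ± 0.15, edgeR unadjusted *P* = 0.0328). *SLC4A1*, the anion exchanger of red cells, had 1160, 1073 and 1144 in TS+SM and 1319, 1320 and 2388 in TS, and *alas2*, the first enzyme of heme synthesis in red cells, had 1101, 876 and 894 in TS+SM and 1035, 1186 and 2143 in TS. The embryonic globin *hbae3* had 15131, 9397 and 8761 in TS+SM and 10930, 13468 and 34093 in TS. The 4 members that were higher were globins as well, *hbae1.1*, *hbae1.2*, *hbae1.3* and *hbae5*, with LFCs of 0.41, 0.10, 0.09 and 0.04, none of them at an unadjusted *P* under 0.05 in edgeR. The summed erythroid level was 27173 to 47949 in TS+SM and 34401 to 79887 in TS. Without TS replicate 3 the median LFC of the list was -0.07, the LFC of *SLC4A1* was -0.22, that of *alas2* was -0.21 and that of *hbae3* was -0.13, while that of *TAL1* was -0.28.

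Yolk and liver genes were lower for 11 of 14 members (median LFC -0.26), but without TS replicate 3 the median was 0.30. Their summed level was 101513 to 146636 in TS+SM and 94078 to 243713 in TS. Pigment genes were lower for 10 of 14 members (median LFC -0.08, and -0.36 to 0.07 when any 1 pool was left out). *TYR*, tyrosinase, had 62.8, 73.5 and 94.5 in TS+SM and 75.8, 82.6 and 448 in TS, and *DCT*, which acts after it in melanin synthesis, had 442, 432 and 418 in TS+SM and 505, 458 and 1086 in TS. The LFC of *TYR* was -1.41 with all pools and -0.04 without TS replicate 3, and that of *DCT* was -0.67 and -0.15. Genes encoded in mitochondria were higher for 12 of 13 members, with sums of 1365680 to 1442910 in TS+SM and 749757 to 1467120 in TS, and TS replicate 3 was the lowest pool. Their median LFC of 0.21 lay between 0.04 and 0.39 when any 1 pool was left out.

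Heat shock genes were lower in TS+SM for 26 of 42 members tested and higher for 16 (median LFC -0.10), and 0 had an unadjusted *P* under 0.05 in edgeR. The median lay between -0.18 and 0.04 when any 1 pool was left out. The pools of 3 members were all lower in TS+SM than in TS, 7.14% against 2.69% of all genes. One of them was *hsp70.3*, with an LFC of -0.30 ± 0.18 (edgeR, unadjusted *P* = 0.130) from the values given above. *hsp90aa1.1*, a chaperone that muscle precursors need to assemble myosin, had 8062, 5686 and 4636 in TS+SM and 7209, 6158 and 14055 in TS, and its LFC of -0.58 became -0.12 without TS replicate 3. Of the stress axis genes, *NR3C1*, the glucocorticoid receptor, had 498, 574 and 551 in TS+SM and 612, 622 and 808 in TS (LFC -0.33 ± 0.16, edgeR unadjusted *P* = 0.0605), and the pools did not overlap. Without TS replicate 3 its LFC was -0.18. *tsc22d3*, a gene that glucocorticoids induce, had 736, 568 and 562 in TS+SM and 539, 506 and 541 in TS, with pools that did not overlap in the other direction (LFC 0.24 ± 0.18). Of the 11 members of the list 7 were higher and 4 lower.

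Of 32 chemosensory genes matched, only 8 passed the filter on low counts, so most olfactory receptors were not tested. Of these 8, 2 were higher and 6 lower (median LFC -0.36, and -0.08 without TS replicate 3), and 2 (25.0%, against 2.69% of all genes) had TS+SM pools below all TS pools: *olfcb1*, given above, and *trpa1b*, a channel that senses irritants in fish. *trpa1b* had 13.2, 10.3 and 15.8 normalized counts in TS+SM and 18.9, 27.1 and 24.1 in TS (LFC -0.83 ± 0.35, edgeR unadjusted *P* = 0.0356). In the apelin list 14 of 25 members were higher and 11 lower (median LFC 0.07, and 0.005 without TS+SM replicate 1), and *acta2* was its only member under an unadjusted *P* of 0.05. *MEF2D*, a transcription factor of muscle in the same list, had 596, 728 and 938 in TS+SM and 917, 889.8 and 1225 in TS (LFC -0.43 ± 0.21, and -0.25 without TS replicate 3).

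In the metabolic lists few members stood out. Of 33 glycolysis genes 20 were higher and 13 lower, and the one under an unadjusted *P* of 0.05, *SLC2A1* (ENSDARG00000001437), a glucose transporter, had 17.9, 9.03 and 14.5 in TS+SM and 9.47, 10.8 and 203 in TS. Its LFC of -2.42 came from TS replicate 3 alone and was 0.48 without it. Of the antioxidant genes 13 were higher and 10 lower. The higher one under an unadjusted *P* of 0.05, *ggact.3*, held 6, 1 and 1 counts in TS+SM and 0, 0 and 1 in TS, near the limit of detection, so no fold is given. The lower one, *HMOX1*, named for heme oxygenase, had 63.4, 56.8 and 67.9 in TS+SM and 69.2, 94.8 and 176 in TS (LFC -0.86 ± 0.34, edgeR unadjusted *P* = 0.0269). Without TS replicate 3 the LFC of *HMOX1* was -0.37. With the unstranded counts the LFC of *HMOX1* was 0.15, so its direction depended on the strand that was counted. Genes of glycosaminoglycans and mucus were lower for 30 of 39 members (median LFC -0.18), with 0 under an unadjusted *P* of 0.05 in edgeR. Their median was 0.06 without TS replicate 3. Immune genes were higher for 16 and lower for 19 of 35 members, and immediate early genes higher for 11 and lower for 9 of 20. In neither list was a member under an unadjusted *P* of 0.05 in edgeR. The neural, heart and smooth muscle, hatching gland and germ cell lists had median LFCs of 0.05, 0.09, -0.01 and -0.07, and each of these medians changed sign when some single pool was left out.

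**Figure D4:**
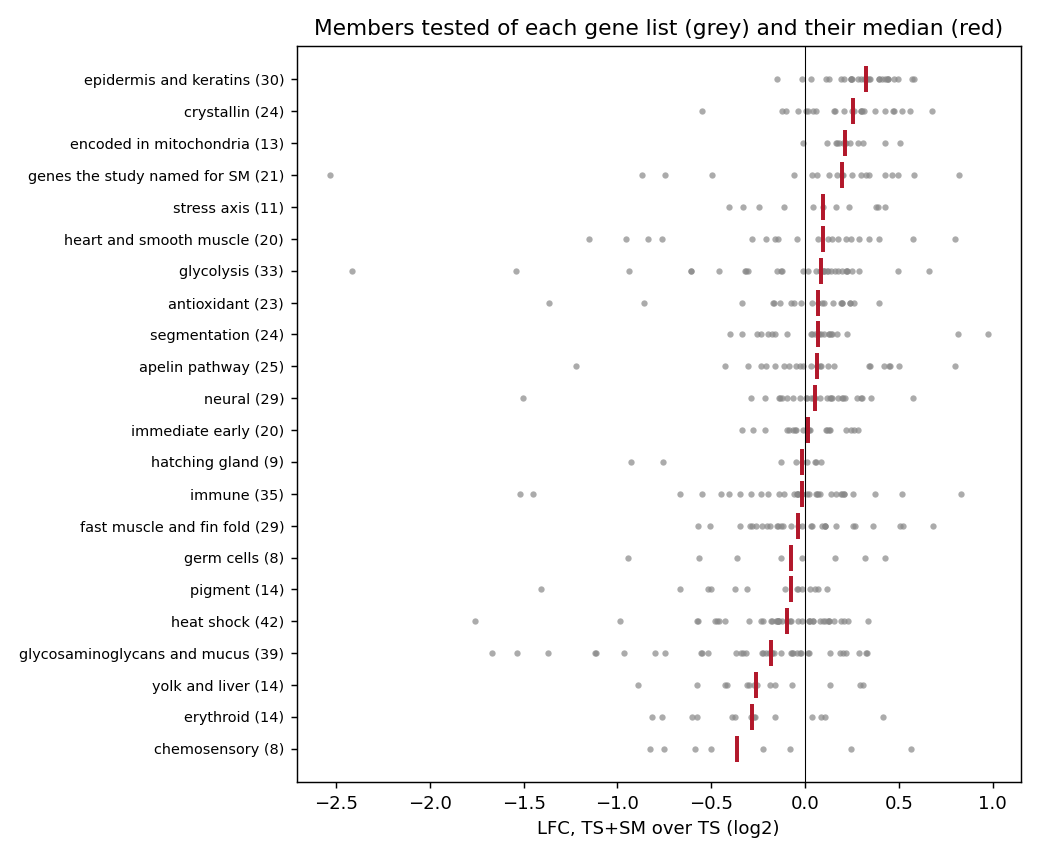
LFC of TS+SM over TS for the members tested of each list (grey points, number tested in brackets) and the median of the list (red bar), ordered by median. Medians run from -0.36 for chemosensory genes to 0.33 for epidermal genes, and ggact.2 and ggact.3, which were at or near the limit of detection in heated pools, are not drawn, although the numbers in brackets include them.

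The same medium was also given without heat, in SM and C, which share no library with TS+SM and TS. SM vs. C had 47 genes at an unadjusted *P* under 0.01 in edgeR (0.251%), 396 under 0.05 and 0 at a *P*-adj of 0.05, while DESeq2 gave 79 under 0.01 and 1 at a *P*-adj of 0.05. Of these 47 genes and the 29 of TS+SM vs. TS, 2 were shared, *chrng* and *best1*, which is 6.90% of the 29 and 4.26% of the 47. For *chrng* the LFC was alike with and without heat, -0.44 ± 0.13 in TS+SM vs. TS and -0.44 ± 0.13 in SM vs. C, where SM pools had 576, 662 and 611 normalized counts and C pools 877, 863 and 767. For *best1* the effects were opposite, as given above. Over all genes tested the LFCs of the 2 comparisons had the same sign for 68.5%, and for the 24 named genes this held for 12. Same-numbered TS and C pools deviated from their group means together (r = 0.614, 0.294 and 0.786). How far this adds to the share with the same sign was not tested.

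The interaction, the effect of the medium with heat minus its effect without heat, had 23 genes at an unadjusted *P* under 0.01 in edgeR (0.123%) and 0 at a *P*-adj of 0.05, with 171 under an unadjusted 0.05. DESeq2 had 50 under 0.01 and called 2 genes at a *P*-adj of 0.05, *best1* and *si:ch211-214b16.2*. The genes described here were chosen for a difference in a comparison that enters the interaction, so that low interaction *P* values among them are in part built into the choice. The interaction LFC of *best1* was -5.38 ± 1.04 in edgeR. *si:ch211-214b16.2* had 30.5, 71.0 and 132 normalized counts in TS+SM and 13.3, 58.2 and 59.8 in TS, with overlapping pools. In SM it had 0 counts in every pool, against 104.4, 41.8 and 56.9 normalized counts in C. SM was at least 14.5-fold below the C mean of 67.7 when 3 counts per library are taken as the limit of detection. *hadhaa* was lower with the medium under heat and not at 27 °C, where it had 188, 240.4 and 235 in SM and 151, 162 and 232 in C, and its interaction LFC was -1.15 ± 0.29 (edgeR, unadjusted *P* = 0.00183). *CU633479.2* had 571, 641 and 943 in TS+SM and 356, 493 and 304 in TS, against 368, 601 and 451 in SM and 1007, 801 and 615 in C. For *acta2* the interaction LFC was 0.63 ± 0.34 (edgeR, unadjusted *P* = 0.0847), so its difference between the temperatures did not reach an unadjusted 0.05.

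The 21 genes that the study named for SM were chosen on the SM and C libraries, so their difference there is no independent evidence. In SM vs. C the pools of 18 were all higher and those of 3 all lower. Between TS+SM and TS 2 of the 21 had pools that did not overlap, *cryba1b* (higher) and *best1* (lower). This was 4.76% of the list in each direction, against 2.71% and 2.69% of all genes. Without *ggact.2*, 14 of 20 (70.0%) had the same sign in both comparisons, close to the 68.5% of all genes. Their median LFC in TS+SM vs. TS was 0.20, and 0.097 without TS replicate 3. A smaller difference between TS+SM and TS than between SM and C is built into the choice of these genes, so their values are given as a description. *krt17* had an LFC of 0.30 ± 0.30 in TS+SM vs. TS, against 0.96 ± 0.30 in SM vs. C, and *krt92* had 0.50 ± 0.30, against 0.86 ± 0.30. Without TS+SM replicate 1 the LFCs in TS+SM vs. TS were -0.08 for *krt17* and 0.16 for *krt92*. Among keratins that the study did not name for SM, *krt94* and *krt1-c5* had larger LFCs in TS+SM vs. TS (0.41 and 0.44) than in SM vs. C (0.33 and 0.22). The other such keratins tested in the epidermal list went the other way. The median LFC of the epidermal list was 0.33 in TS+SM vs. TS and 0.51 in SM vs. C. In SM vs. C 19 of its 30 members had SM pools above all C pools. Over all 18688 genes tested, 1377 had SM and C pools that did not overlap, counting both directions. The list includes keratins that the study named on these same SM and C libraries.

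*fthl28*, of the ferritin family, had 47.9, 77.4 and 46.1 normalized counts in TS+SM and 149.7, 137 and 26.8 in TS, against 85.4, 85.7 and 79.4 in SM and 34.5, 20.4 and 26.1 in C. *chs1*, a chitin synthase, had 12.6, 11.6 and 9.70 in TS+SM and 26.5, 20.3 and 11.0 in TS, against 20.2, 25.0 and 35.3 in SM and 4.05, 13.6 and 8.39 in C. *tcima*, named for a regulator of transcription and immunity, had 278, 245 and 235 in TS+SM and 242, 253 and 295 in TS, against 247, 204 and 205 in SM and 133, 146 and 150.1 in C. *chst2b*, a sulfotransferase of glycosaminoglycans, had 28.7, 24.5 and 35.1 in TS+SM and 20.8, 28.4 and 27.5 in TS, against 15.5, 16.7 and 18.7 in SM and 32.4, 40.8 and 33.6 in C. In *fthl28*, *chs1*, *tcima* and *chst2b* the SM and C pools did not overlap and the TS+SM and TS pools did. The LFCs of these genes had opposite signs in TS+SM vs. TS and SM vs. C, unlike 14 of the 20 genes compared. Of those 14, *prg4a* had LFCs of 0.33 ± 0.37 in TS+SM vs. TS and 1.22 ± 0.38 in SM vs. C. *xkr8.2* had 0.46 ± 0.53 and 1.65 ± 0.52, and *scamp5a* had -0.49 ± 0.34 and -1.15 ± 0.35. *ggact.2*, a gamma-glutamylamine cyclotransferase, was outside the range in which the medium could be compared under heat. It had 0 counts in all TS+SM pools and at most 1 in a TS pool, against 96.2, 114 and 91.5 normalized counts in SM and 42.6, 38.9 and 21.4 in C.

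**Figure D5:**
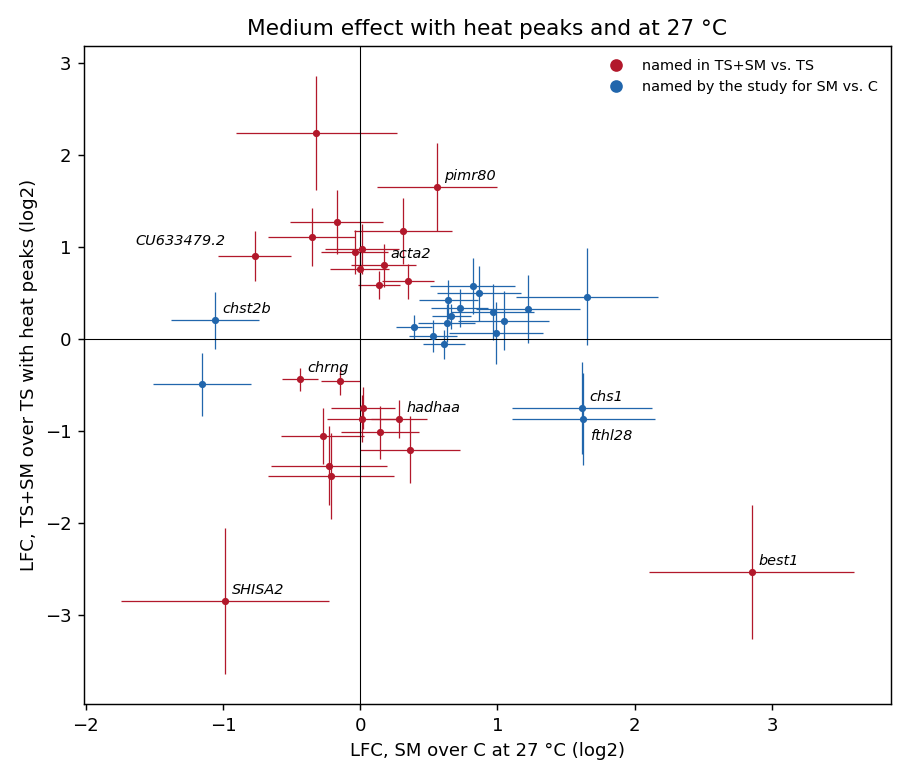
LFC of SM over C at 27 °C (horizontal) against the LFC of TS+SM over TS with heat peaks (vertical), each with its SE, for the 24 genes named in TS+SM vs. TS (red) and the genes the study named for SM vs. C (blue); si:ch211-214b16.2, ggact.2 and ggact.3 are left out because a group was at the limit of detection. Blue points lie between -0.87 and 0.58 on the vertical axis, and best1, which belongs to both sets and is drawn in red, lies at 2.85 and -2.53.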

How the data were processed

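Stranded mRNA libraries of whole embryo pools were sequenced as read pairs. Per the labels and the study's methods, the authors trimmed the reads with fastp 0.23.1, aligned them to GRCz11 with STAR 2.6.1 and deposited STAR's read counts per gene. Reads that mapped to several places or to overlapping genes were not counted, which lowers the level of genes with close copies. In the TS+SM and TS libraries 18.3% to 26.0% of read pairs were not assigned to a gene, these included. The stranded column was used and the 4 summary lines were left out.

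Of 32520 genes, 18688 passed edgeR's filter on low counts. All 12 libraries were fitted together in R 4.3.3 with edgeR 4.0.16 (limma 3.58.1, statmod 1.5.0): TMM scaling, 4 groups, and quasi-likelihood tests of TS+SM vs. TS, SM vs. C and their difference (the interaction), two-sided, with Benjamini-Hochberg adjustment over all genes tested. The SE of an LFC was derived from the LFC and its F statistic. A pool of 20 embryos is the replicate. Genes were named by rank of unadjusted *P*, up to 12 in each direction, with pools that did not overlap and a mean of at least 10 normalized counts in the higher group, together with the genes the study named for TS+SM and up to 4 members of each list. Members of the list of genes the study named for SM were also taken, and *RYR2*, *MEF2A*, *krt94*, *krt1-c5* and the globins other than *hbae3* were added after their values were seen. Gene names came from a table of identifiers that matched 29207 of the genes. Names in capitals follow the human gene, and some are shared by several identifiers. The 22 lists and the comparison were chosen with earlier results of these data known. Alternatives were DESeq2 1.42.0, its size factors, no filter, the replicate block, unstranded counts, thinned libraries, a fit of the 6 libraries alone and leaving out each pool. Counting intervals would cover counting error only, and reads carried no molecular identifiers.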

Additional observations from a re-analysis of the deposited data

Results flagged for a closer look

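*best1*, a chloride channel, was lower with the conditioned medium under heat and higher with it at 27 °C, with no overlap of pools in either comparison. It had 6.58, 11.6 and 4.85 normalized counts in TS+SM against 50.2, 65.0 and 19.2 in TS, and 17.1, 86.9 and 32.0 in SM against 7.09, 9.72 and 1.86 in C. The interaction LFC was -5.385 ± 1.04, with an edgeR unadjusted *P* of 0.000246, an edgeR *P*-adj of 1.00 and a DESeq2 *P*-adj of 0.00331. The call was therefore made by DESeq2 and not by edgeR.

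*CU633479.2*, which the study calls myosin 7, had the opposite pattern. Its TS+SM pools had 571, 641 and 943 normalized counts against 356, 493 and 304 in TS, and its SM pools had 368, 601 and 451 against 1007, 801 and 615 in C. The interaction LFC was 1.67 ± 0.38 (edgeR unadjusted *P* = 0.000855 and *P*-adj = 1.00; DESeq2 *P*-adj = 0.380), and no tool called it. Both genes were chosen for a difference between TS+SM and TS, which enters the interaction. They were then flagged because their pools did not overlap in either comparison and the directions were opposite. Of the 18688 genes tested, 28 had that pattern. Another 68 had pools that did not overlap in either comparison, with the same direction in both.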

How the results depend on the processing

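Under all 13 alternatives 0 genes passed the adjusted threshold of 0.05 between TS+SM and TS. The 29 genes at an unadjusted *P* under 0.01 became 59 with DESeq2 (27 of them shared), 52 with no filter on low counts (26 shared), 55 with the replicate block (25 shared) and 16 with only the 6 libraries of TS+SM and TS (10 shared), and 13 to 94 when 1 pool was left out. DESeq2 raised the interaction calls to 2 and the SM vs. C genes under 0.01 to 79, of which 44 were among the 47. The replicate numbers were not treated as pairs. Over deviations from the group means, same-numbered TS+SM and TS pools correlated at r = 0.478, 0.0608 and 0.556, and TS+SM replicate 2 was most like TS replicate 1. Between TS and C the same-numbered pools correlated at r = 0.614, 0.294 and 0.786, and between SM and C at 0.322, -0.212 and -0.304. In every treatment the labels give the replicate 3 pool a higher sample number than all pools of replicates 1 and 2. Whether pools of the same number shared a batch was not tested. The fits without TS replicate 3 kept TS+SM replicate 3, so they were not balanced by replicate number. Of 775 alternatives for named genes 768 kept their direction, and 7 turned, for *HMOX1* to 0.15 with the unstranded counts and otherwise when a pool was left out. Their LFCs over the pools left out ran from -0.047 to 0.39 for *map1lc3cl*, -0.13 to 0.66 for *ora3*, -2.92 to 0.48 for *SLC2A1*, -0.084 to 0.56 for *krt17* and -0.13 to 0.038 for *tcima*, which was also above 0 (0.01) without TS+SM replicate 3. Of 154 alternatives for list medians 1 moved by more than the median SE of the members of its list. It was that of yolk and liver genes, to 0.30 without TS replicate 3. Changes of sign were more frequent. Only the medians of the apelin, chemosensory, crystallin, epidermal, erythroid and mitochondrial lists, and of the genes named for SM, kept their sign throughout. The cause was not tested for these shifts. The median SE of 0.57 in the third of genes with the lowest level limited what could be seen there.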
